A study of Mus musculus with 6 samples.

Results

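The selenoproteins outside the glutathione peroxidase and thioredoxin reductase families were examined in mouse keratinocytes that lack Gpx4. The 10 genes were Selenop, Selenow, Selenof, Selenok, Selenos, Selenot, Selenom, Selenoi, Selenon and Msrb1, chosen by name through their current or older symbols. All 10 were measured, by 21 of the 45037 probe sets tested, and the table names 18193 genes in all. Each of 3 litters (A, B and C) gave a knockout and a control array, and the comparison was made within litters. The knockout arrays hold RNA of primary skin keratinocytes from newborn mice in which Gpx4 was removed by a cre recombinase under the keratin 14 promoter. The control arrays hold RNA of littermates' keratinocytes labelled only as control, and the labels do not say which alleles or cre they carried. Both groups share the C57BL6/FVB background and a culture medium with 100 nM sodium selenite. Each array is 1 pool of cells of 1 genotype and 1 litter, so the spread between arrays is that between litters and not between single mice. The keratin 14 promoter is active in basal keratinocytes and not in melanocytes or fibroblasts of the skin.

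A selenoprotein carries selenocysteine, an amino acid that the ribosome inserts at a UGA codon, which elsewhere means stop. The insertion needs a hairpin in the 3′ end of the mRNA, the SECIS element, and a dedicated tRNA, elongation factor and binding protein. Selenium supply sets selenoprotein synthesis, and in rodents the mRNAs of Selenow and Msrb1 are among those that decline when selenium is short, whereas Gpx4 mRNA is better preserved. Most of the 10 proteins sit in or cross the endoplasmic reticulum (ER) membrane system, where they take part in thiol chemistry, protein quality control, calcium handling or phospholipid synthesis.

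Values are array intensities after quantile normalization, and means carry the SD of 3 arrays. A change is knockout minus control on log2(intensity + 16) with its SE, fitted by limma within litters, with p adjusted by Benjamini-Hochberg over all probe sets, and a gene with several probe sets is described by its brightest. Intensities of different probe sets cannot be set against each other. At an unadjusted limma p under 0.05, 7.06% of all probe sets were higher in the knockout and 7.58% lower. The list counts at that threshold are to be read beside these shares. Gpx4 was lower in the knockout in all 3 litters, at 212, 259.7 and 216 against 497, 551 and 536 in controls (log2 change -1.15 ± 0.091, limma adjusted p = 0.0206). Its other probe set, of a type that can bind related sequences, read -1.40 ± 0.21 (adjusted p = 0.0630). Keratinocyte markers were bright in every array, with Krt14 between 6607 and 6740.1 in knockouts and between 6278 and 6808 in controls. The suprabasal keratin Krt10 was the 1 of 8 keratinocyte markers that fell (-1.42 ± 0.084, adjusted p = 0.00922). At an unadjusted p under 0.05 3 of the 8 were lower, Krt10, Krt1 (-1.21, adjusted p = 0.0836) and Trp63 (-0.43, adjusted p = 0.0816), and Krt1 passed after array medians were equalized (adjusted p = 0.0030). The 8 summed to between 24526 and 25092 in knockouts and between 25828 and 27173 in controls. The 8 melanocyte markers summed to between 6397 and 7000.2 in knockouts and between 4597 and 4767 in controls, and Tyrp1 (0.69 ± 0.078, adjusted p = 0.0380) and Mlana (1.11 ± 0.14, adjusted p = 0.0429) rose. At an unadjusted p under 0.05 7 of the 8 were higher and 0 lower. Neither melanocyte gene passed with the intensities scaled as deposited (adjusted p = 0.539 and 0.209), and Krt10 (0.0622) and Gpx4 (0.122) did not either. The 7 fibroblast markers measured summed to between 402 and 595 in knockouts and between 191 and 543 in controls, and none passed by limma (3 were higher at an unadjusted p under 0.05). None of the 11 leukocyte, 5 endothelial or 7 skeletal muscle markers passed either, with 2, 0 and 2 higher at an unadjusted p under 0.05. Their sums were 135 to 194 in knockouts and 109 to 177 in controls for leukocytes, 31.5 to 53.3 and 26.5 to 35.4 for endothelium, and 101 to 154 and 74.2 to 106 for muscle. The knockout pools lacked Y-linked signal, with 3 genes summing to between 4.02 and 8.58 against 247 to 314 in controls, and Xist lay between 1214 and 1259.8 in knockouts and between 389 and 536 in controls, so sex and genotype cannot be told apart. The part of cell mixture and sex in the values below was not tested. In bulk RNA, fewer cells of a type and less RNA per cell cannot be told apart.

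Of the 10 selenoprotein mRNAs, Selenop, Msrb1 and Selenom had the most negative changes and Selenoi and Selenow the most positive. By limma with adjusted p, 0 of the 10 passed, against 0.42% of all probe sets (0.158% higher and 0.262% lower in the knockout). Of all calls 37.6% were higher in the knockout, and 8.57% were with intensities as deposited. At an unadjusted p under 0.05, 3 were lower (Selenop, Msrb1 and Selenom), against 7.58% of all probe sets, and 1 was higher (Selenoi), against 7.06%. Over all 21 probe sets of the genes, 3 were lower and 4 higher at that threshold. The median log2 change of the 10 was -0.07, between -0.91 and 0.38, and the median over all probe sets was 0.00. Over the 21 probe sets of the 10 genes the median was 0.05, of the opposite sign. After quantile normalization 4 of the 10 were lower in the knockout in all 3 litters, against 18.3% of all probe sets. Higher in all 3 litters were 2, Selenos and Selenoi, against 18.1%. As deposited, both had the litter C knockout below its control. On the quantile-normalized scale, 6 of the 21 probe sets were lower and 6 higher in all 3 litters.

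**Figure D1:**
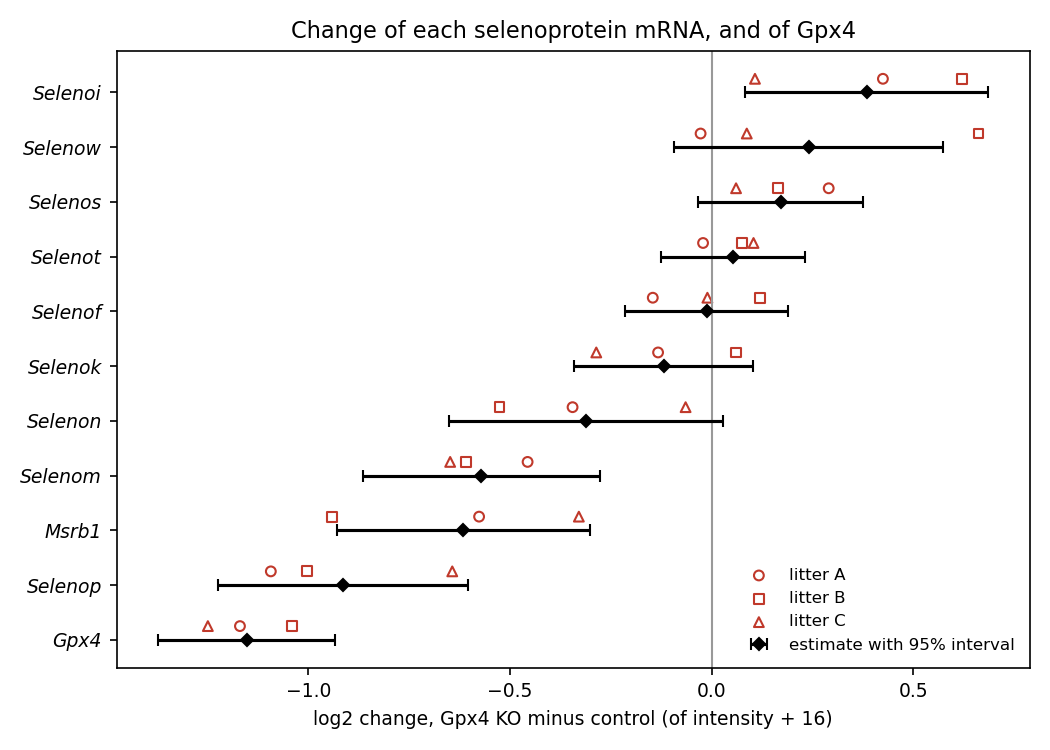
Log2 change (knockout minus control, of intensity + 16) of each of the 10 selenoprotein mRNAs and of Gpx4, with the 95% interval from limma (black) and the change in each litter (red, 1 symbol per litter). The intervals of Selenop, Msrb1 and Selenom lie below 0, that of Selenoi lies above 0, and those of the other 6 members include 0.

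Selenop, the secreted selenoprotein that carries selenium in plasma and is taken up by receptors of the low-density lipoprotein family, was lower in every knockout array than in any control array. Its intensities were 90.3, 100.3 and 90.2 in the knockouts of litters A, B and C, against 211, 217 and 149.8 in the controls. As deposited the controls were 175, 227.5 and 202.9, with litter C between litters A and B. After quantile normalization the 3 knockout values were close together, and the control of litter C stood between them and the other controls. Selenop averaged 93.6 ± 5.84 in knockouts and 193 ± 37.2 in controls (SD, n = 3 each), a level 1.88-fold lower in the knockout on the log2(intensity + 16) scale. The log2 change was -0.91 ± 0.13 with a 95% interval from -1.22 to -0.60, and it did not pass (limma adjusted p = 0.0543). Without litter C it was -1.03 and passed (adjusted p = 0.00451), and it also passed after array medians were equalized (-1.03, adjusted p = 0.0106), whereas it did not as deposited (-1.09, adjusted p = 0.135) or without litter B (-0.86, adjusted p = 0.509). It passed in 5 of 17 alternatives in all. After quantile normalization, all knockout arrays lay below all control arrays for 2 of the 10 genes by their brightest probe sets, Selenop and Selenom. This was so for 9.43% of all probe sets, and for 0 of the 10 the knockouts all lay above. Over the 21 probe sets, 2 had all knockouts below and 2 had them all above, against 9.43% and 8.79% of all probe sets. RefSeq lists 3 transcription starts for Selenop in GRCm38.p6. The bases before the most downstream one, chr15:3270727-3270976 on the plus strand, are shown because Selenop had the largest change of the 10. Capitals mark a forkhead site (GTAAACA) and a TATA box (TATAAA). Both strands were searched for all motifs.
Selenop: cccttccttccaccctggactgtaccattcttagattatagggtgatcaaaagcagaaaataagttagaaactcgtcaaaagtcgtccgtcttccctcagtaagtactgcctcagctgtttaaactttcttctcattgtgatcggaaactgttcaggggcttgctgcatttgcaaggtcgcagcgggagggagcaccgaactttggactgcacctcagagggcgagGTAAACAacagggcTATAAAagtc

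Among 8 motifs searched in the 250 bases before the start, the forkhead site was found in 1 of the 10 genes, Selenop, against 3.17% of 32851 RefSeq windows of that length. It began 24 bases before the start and the TATA box 10 bases before it. The other motifs were the GC box (GGGCGG, 32.7% of windows), the CCAAT box (CCAAT, 33.8%), the AP-1 site (TGANTCA, 6.75%), the E box (CACGTG, 6.02%), the core of the antioxidant response element (TGACNNNGC, 10.2%) and the ER stress response element, found in 0.113% of windows and including a CCAAT box. A GC box was in 6 of the 10 genes, a CCAAT box in 4 and a TATA box, in 12.4% of all windows, in 4. The AP-1 site and the antioxidant response element core were each in 1 (Selenok), the E box in 1 (Selenos) and the ER stress response element in 0. A match says only that these letters stand in the window.

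Over the 6 arrays, the 5 genes whose log2 values followed Selenop most closely were Vav3, Fam234a, Fzd1, Clu and Timp2 (Pearson r between 0.996 and 0.999). These 6 arrays share litters and genotypes, and of the 19514 probe sets brighter than the median and named for a gene 2.58% reached an r above 0.95. The 5 were picked by their r with Selenop over these same arrays. Their lower level in the knockout therefore follows from the choice, which also favours small p-values. Clu, which encodes the secreted chaperone clusterin, had 83.2, 88.9 and 75.5 in knockouts, against 296, 277 and 160.0 in controls (log2 change -1.36 ± 0.16, limma adjusted p = 0.0380). Vav3 had a change of -1.27 ± 0.14 (limma adjusted p = 0.0369) and Timp2, an inhibitor of matrix metalloproteinases, one of -0.94 ± 0.15 (adjusted p = 0.0665). The Vav3, Clu and Timp2 values are not from the brightest probe set of the gene, and that of Clu is of a type that can bind related sequences.

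Msrb1, a selenium-containing reductase that returns the R form of methionine sulfoxide to methionine in the cytosol and nucleus, was lower in the knockout of each litter. Its intensities were 357, 303 and 229.6 in the knockouts of litters A, B and C, against 541, 596 and 293 in the controls. As deposited the groups did not overlap, at 304, 328 and 194 in knockouts against 446, 617 and 398 in controls. After quantile normalization they overlapped, since the control of litter C lay below both the litter A and litter B knockouts. Msrb1 averaged 296 ± 64 in knockouts and 476 ± 162 in controls (SD, n = 3 each), 1.53-fold lower in the knockout on the log2(intensity + 16) scale. The log2 change was -0.62 ± 0.13, with a 95% interval from -0.93 to -0.30, and it did not pass (limma adjusted p = 0.113). It passed in 3 of 17 alternatives, among them without litter C (-0.76, adjusted p = 0.0125) and with the 40% dimmest probe sets left out (adjusted p = 0.0469). It did not as deposited (-0.80, adjusted p = 0.294), without the block (adjusted p = 0.374) or without litter B (-0.45, adjusted p = 0.561). The window before the Msrb1 start (GRCm38.p6, chr17:24736343-24736592, plus strand) is shown for comparison with Selenop. Capitals mark a CCAAT box, a TATA box read on the opposite strand (TTTATA) and 2 GC boxes. The TATA match begins 241 bases before the start.
Msrb1: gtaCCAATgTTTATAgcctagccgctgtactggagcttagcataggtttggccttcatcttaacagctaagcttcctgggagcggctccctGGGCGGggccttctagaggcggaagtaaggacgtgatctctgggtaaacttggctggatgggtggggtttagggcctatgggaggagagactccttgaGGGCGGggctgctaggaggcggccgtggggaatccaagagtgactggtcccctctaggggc

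Msra, Msrb2 and Msrb3 reduce methionine sulfoxide without selenium, and none of them passed by limma, with 1 lower at an unadjusted p under 0.05. Msrb3, which like Msrb1 acts on the R form, had 227, 179 and 155 in knockouts, against 415, 437 and 207 in controls (log2 change -0.81 ± 0.16, limma adjusted p = 0.103). It passed after array medians were equalized (-0.94, adjusted p = 0.0248). Msra, which acts on the S form, had a change of 0.13 ± 0.16 (adjusted p = 0.770), and -0.03 as deposited. As with Msrb1, the control of litter C was the lowest Msrb3 control.

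**Figure D2:**
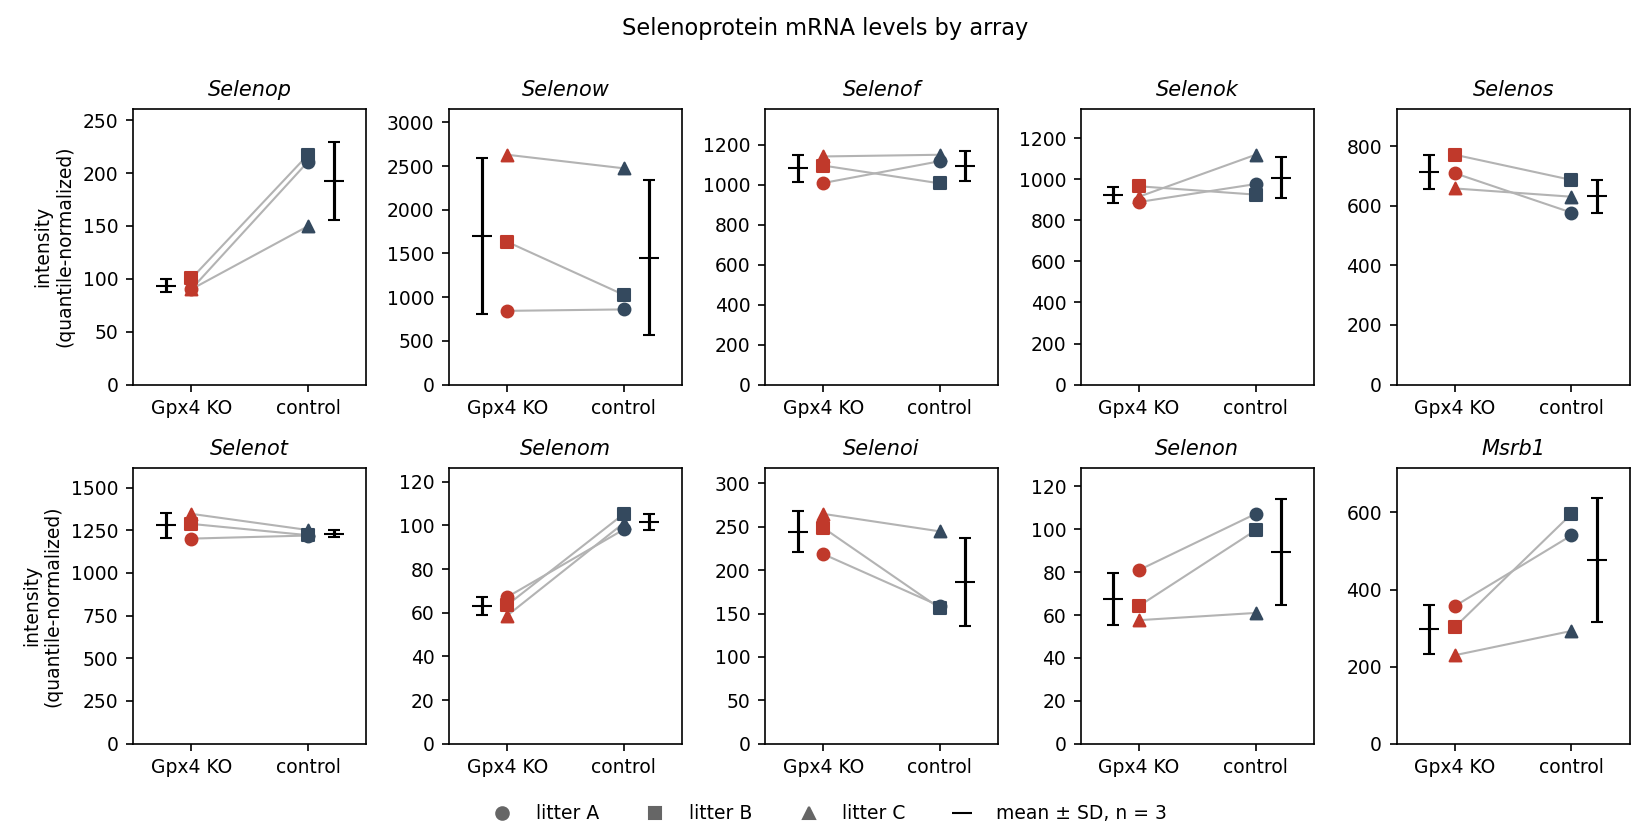
Quantile-normalized intensity of each of the 10 genes (brightest probe set) on each array, with knockouts in red and controls in dark grey, 1 symbol per litter, grey lines joining arrays of a litter, and the mean ± SD of 3 arrays beside them. Knockout and control values do not overlap for Selenop and Selenom, and for Selenow the arrays are spread by litter in both groups.

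Selenom, an ER-resident oxidoreductase with a thioredoxin-like fold, was the other gene whose groups did not overlap after quantile normalization. It had 67.2, 63.6 and 58.7 in the knockouts of litters A, B and C, against 98.2, 105 and 101 in the controls. As deposited the controls were 83.9, 111 and 135, with litter C the highest, and the knockouts 57.6, 66.9 and 50.5. After quantile normalization both groups were tight, and litter C did not stand apart. The means were 63.2 ± 4.26 in knockouts and 102 ± 3.58 in controls (SD, n = 3 each), 1.49-fold lower in the knockout on the log2(intensity + 16) scale, which understates the fold of a dim gene. The log2 change of -0.57 ± 0.12 had a 95% interval from -0.86 to -0.28 and did not pass (limma adjusted p = 0.115). It passed in 2 of 17 alternatives, with the 40% dimmest probe sets left out (adjusted p = 0.0496) and without the control of litter C (-0.56, adjusted p = 0.0395), and its adjusted p reached 0.572 without litter B. In the window before the Selenom start (GRCm38.p6, chr11:3514434-3514683, plus strand), capitals mark a TATA box. That match begins 144 bases before the start.
Selenom: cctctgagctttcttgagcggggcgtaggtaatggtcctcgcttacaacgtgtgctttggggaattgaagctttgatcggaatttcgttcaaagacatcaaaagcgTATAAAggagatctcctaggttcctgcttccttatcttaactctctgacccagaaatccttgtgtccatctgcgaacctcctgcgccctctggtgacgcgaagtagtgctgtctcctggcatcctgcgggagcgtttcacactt

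Selenof, which has a fold like that of Selenom and binds the glycoprotein folding sensor Uggt1 in the ER, did not differ beyond the spread. Its intensities were 1008, 1096 and 1141 in the knockouts, against 1117, 1007 and 1149.8 in the controls, and the groups overlapped. The log2 change was -0.01 ± 0.084, with a 95% interval from -0.21 to 0.19 (limma adjusted p = 0.969). The other Selenof probe set was dim, between 12 and 13.4 in knockouts and between 4.72 and 12.8 in controls. Of the 7 genes of glycoprotein folding examined beside it none passed by limma, and none had an unadjusted p under 0.05 (median log2 change 0.07). Prkcsh, a subunit of glucosidase II, had a change of 0.21 ± 0.089 (adjusted p = 0.349) and the lectin chaperone Canx one of -0.21 ± 0.12 (adjusted p = 0.487).

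Selenos and Selenok, single-pass ER membrane proteins that bind the machinery drawing misfolded proteins out of the ER, did not pass. Selenos had 709, 772 and 658 in the knockouts of litters A, B and C, against 577, 687 and 631 in the controls. After quantile normalization it was higher in each litter, with overlap between litters. Its log2 change was 0.17 ± 0.085 (95% interval -0.03 to 0.38, limma adjusted p = 0.418). The other 2 Selenos probe sets gave 0.37 ± 0.11 and 0.35 ± 0.12 (adjusted p = 0.200 and 0.260). The first of these is of a type that can bind related sequences. On both, every knockout array lay above every control array after quantile normalization. As deposited, the litter C control was the highest array on each Selenos probe set (843, 789 and 188), above its knockout (564, 542 and 134). As deposited the change of the brightest was 0.00 and those of the others 0.19 and 0.14.

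Selenok, which also serves as cofactor of the palmitoyltransferase Zdhhc6, had 889.7, 966 and 916 in the knockouts, against 977, 926 and 1119.9 in the controls. The values of the 2 groups overlapped, and the highest was the control of litter C. The log2 change was -0.12 ± 0.092 (95% interval -0.34 to 0.10, limma adjusted p = 0.614), and the other probe set gave -0.04 ± 0.09 (adjusted p = 0.872). Of 13 genes of ER-associated degradation and palmitoylation measured, none passed by limma, and 2 were higher and 0 lower at an unadjusted p under 0.05 (median log2 change 0.01). Ubxn8, an ER anchor of the ATPase Vcp, had a change of 0.50 ± 0.13 (adjusted p = 0.173) and Derl1, a channel component, one of 0.25 ± 0.088 (adjusted p = 0.279).

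Selenot and Selenon, ER membrane selenoproteins tied to redox and calcium balance, did not pass either. Selenot had 1201, 1287 and 1346 in the knockouts of litters A, B and C, against 1219, 1221 and 1251 in the controls, with overlap. Its log2 change was 0.05 ± 0.074 (95% interval -0.13 to 0.23, limma adjusted p = 0.804), and it was -0.12 as deposited and -0.061 after array medians were equalized. A further Selenot probe set read -0.14 ± 0.084 (adjusted p = 0.491), lower in the knockout of all 3 litters. The remaining 2 Selenot probe sets were dim, with means of 15 and 3.47 in knockouts and 16 and 1.44 in controls.

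Selenon, whose loss in people causes a congenital muscle disease, had 81, 64.2 and 57.6 in the knockouts of litters A, B and C, against 107, 99.5 and 61 in the controls. After quantile normalization Selenon was lower in the knockout of each litter, and in litter C the pair differed by 0.06 on the log2 scale. As deposited the groups did not overlap, at 69.9, 67.6 and 49.5 in knockouts against 90.9, 105.3 and 79.8 in controls. The log2 change was -0.31 ± 0.14 (95% interval -0.65 to 0.03, limma adjusted p = 0.376). Of 11 calcium store genes measured none passed by limma, and 1 was higher and 1 lower at an unadjusted p under 0.05 (median log2 change -0.05). Ero1a, an ER oxidase that passes electrons from protein disulfide isomerase to oxygen, had 513, 477 and 407 in knockouts, against 258, 239 and 324 in controls (0.74 ± 0.15, adjusted p = 0.0989). The inositol trisphosphate receptor Itpr3 had a change of -0.41 ± 0.13 (adjusted p = 0.233).

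Selenoi is an ethanolamine phosphotransferase that completes phosphatidylethanolamine synthesis in the Kennedy pathway. After quantile normalization Selenoi was higher in the knockout of each litter on its brightest probe set. It had 219, 249 and 265 in the knockouts of litters A, B and C, against 159, 156 and 245 in the controls. The control of litter C lay among the knockouts, so the groups overlapped. Selenoi averaged 244 ± 23.5 in knockouts and 187 ± 50.4 in controls (SD, n = 3 each), 1.31-fold higher in the knockout on the log2(intensity + 16) scale, with a log2 change of 0.38 ± 0.13 (95% interval 0.08 to 0.69, limma adjusted p = 0.240). It passed in 2 of 17 alternatives, without litter C (0.52, adjusted p = 0.0381) and without its control array alone, and it was 0.18 as deposited (adjusted p = 0.889). As deposited, the litter C control (332) lay above its knockout (223). The 4 Selenoi probe sets disagreed: 1 further probe set read 0.32 ± 0.15, another -0.18 ± 0.13 with the knockout lower in all 3 litters, and a dim one 0.09 ± 0.15. With the mean of the 4 the change was 0.15 (adjusted p = 0.584). In the window before the Selenoi start (GRCm38.p6, chr5:30232331-30232580, plus strand), shown because Selenoi had the most positive change of the 10, capitals mark 3 GC boxes and a CCAAT box on the opposite strand (ATTGG), with no TATA box.
Selenoi: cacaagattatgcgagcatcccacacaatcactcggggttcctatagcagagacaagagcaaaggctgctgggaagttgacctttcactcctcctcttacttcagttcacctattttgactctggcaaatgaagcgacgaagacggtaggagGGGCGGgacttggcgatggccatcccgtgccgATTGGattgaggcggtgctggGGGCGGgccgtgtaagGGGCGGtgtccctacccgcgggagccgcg

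Of 12 genes of phosphatidylethanolamine and phosphatidylcholine synthesis and exchange measured beside Selenoi, none passed by limma, and at an unadjusted p under 0.05 3 were higher and 2 lower (median log2 change 0.04). Pisd, the mitochondrial decarboxylase that makes phosphatidylethanolamine from phosphatidylserine, had 354, 419 and 351 in knockouts, against 225, 237 and 242 in controls. These groups did not overlap, and the change was 0.63 ± 0.098 (adjusted p = 0.0664; 0.44 and 0.654 as deposited). Its probe set is of a type that can bind related sequences. Etnk1, the ethanolamine kinase that opens the pathway, had a change of 0.66 ± 0.16 (adjusted p = 0.142).

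**Figure D3:**
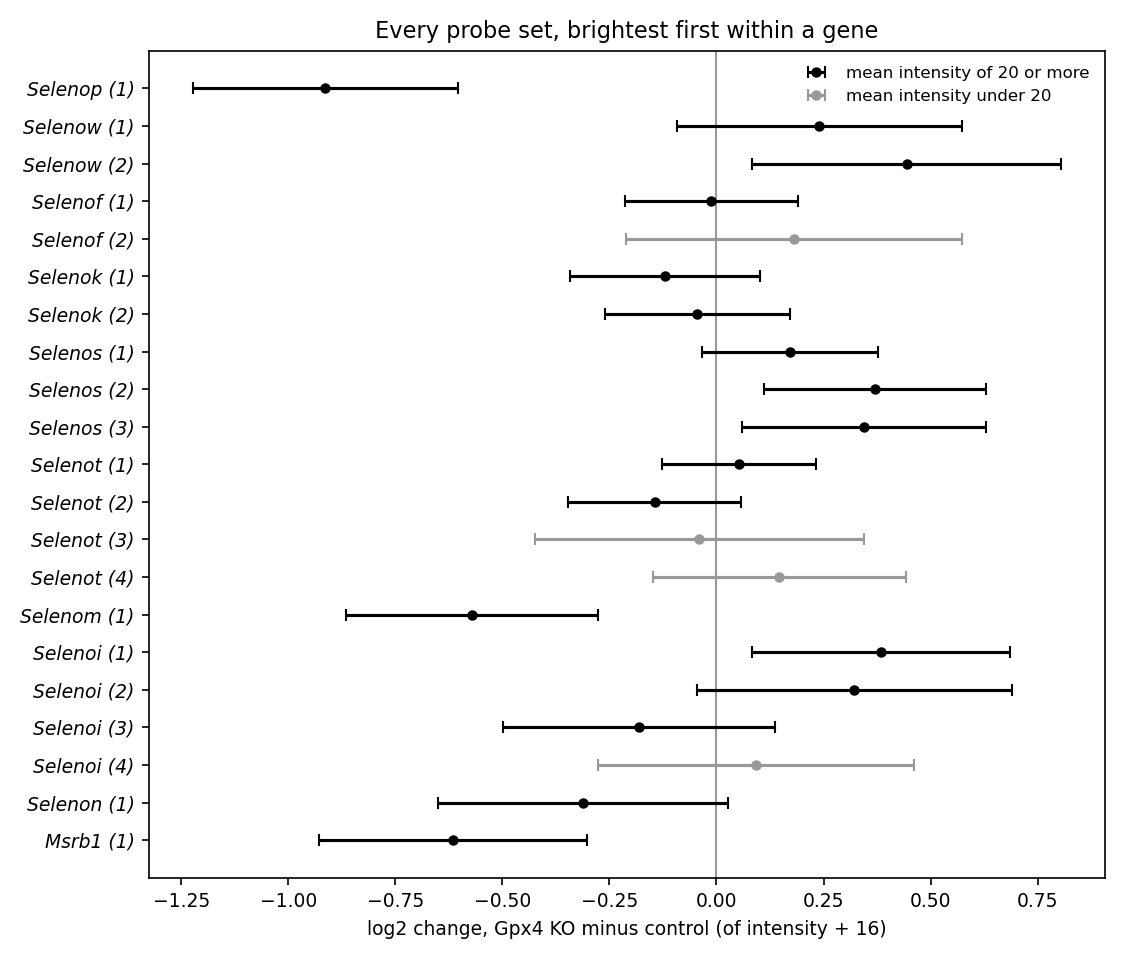
Log2 change (knockout minus control, of intensity + 16) with its 95% interval for each of the 21 probe sets, numbered from the brightest within a gene, with those of mean intensity under 20 in grey. The changes of the Selenof, Selenoi and Selenot probe sets fall on both sides of 0. Those of the 3 Selenos probe sets all lie above 0, and the interval of the brightest includes 0.

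Selenow, a small cytosolic protein with a thioredoxin-like fold that is abundant in muscle, varied more between litters than between genotypes. Its brighter probe set had 844, 1633 and 2629.9 in the knockouts of litters A, B and C, against 860.0, 1027 and 2475 in the controls. The order of the litters was the same in both groups, and litter C was the brightest. The log2 change between genotypes was 0.24 ± 0.14 (95% interval -0.09 to 0.57, limma adjusted p = 0.485). By litter it was -0.03 (A), 0.66 (B) and 0.09 (C). The second Selenow probe set had 229, 432 and 779 in the knockouts, against 150.1, 249 and 771 in the controls, a change of 0.44 ± 0.15 (adjusted p = 0.255).

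Between litters C and A Selenow differed by 2.96-fold on the brighter and 3.93-fold on the other probe set, both genotypes together. The litter term, examined after the values were seen, had an unadjusted p of 0.000185 and 7.54e-05 in limma and an adjusted p of 0.346 and 0.215. No probe set passed for litter after adjustment (0 of 45037), and 7.58% had an unadjusted p under 0.05. Among the members, 3 of the 10 genes (Selenow, Msrb1 and Selenon) and 6 of the 21 probe sets did. By the size of the spread between litters the Selenow probe sets stood at the percentiles 99.8 and 99.9 of all probe sets. Msrb1 stood at 97.5, with litter C 0.604 times litter A, Selenon at 93.0 and Selenom at 10.1. The 4 Selenoi probe sets stood between 55.1 and 97.5. The brighter Selenow probe set is of a type that can bind related sequences, and the other is not.

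**Figure D4:**
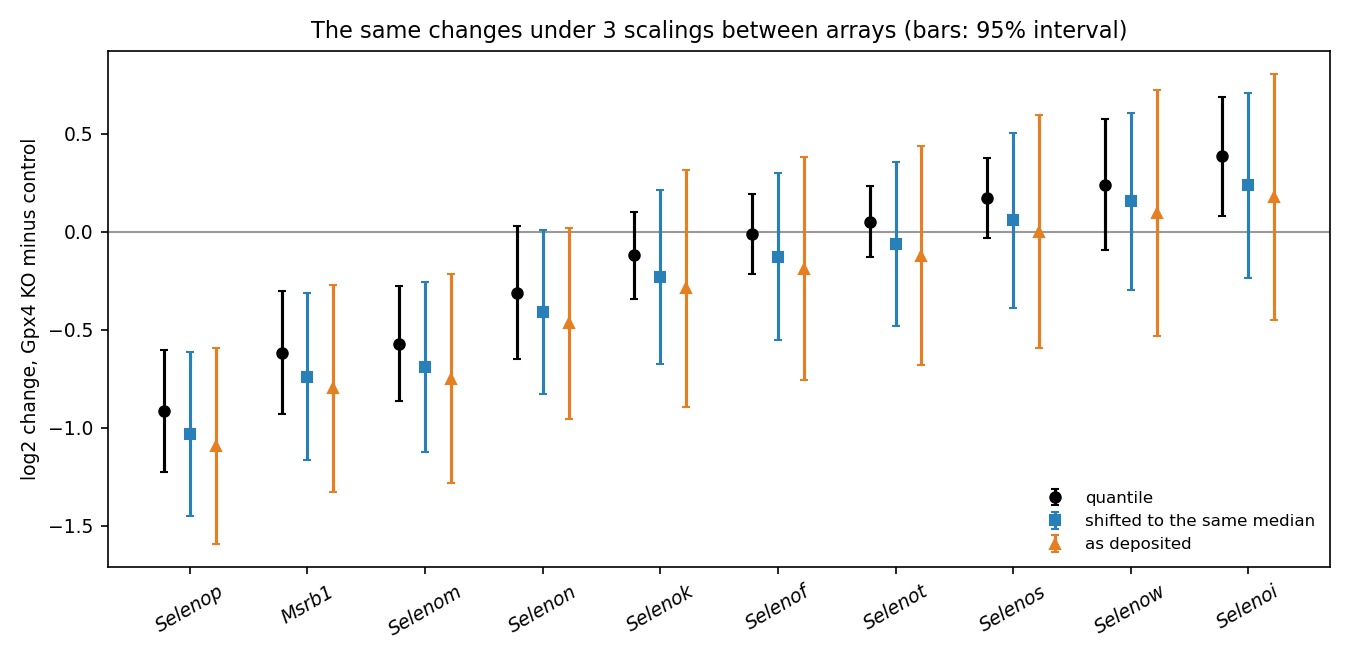
Log2 change (knockout minus control) of the 10 genes with the 95% interval, with intensities quantile-normalized (black circles), shifted to the same median (blue squares) or scaled as deposited (orange triangles). The changes of all 10 genes are lower with the other 2 scalings, Selenot lies below 0 with both of them, and Selenop is the lowest with each.

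The remaining selenoproteins and the machinery that makes them were measured beside the 10. Of 13 remaining selenoproteins measured, the deleted Gpx4 was the 1 that fell by limma and 0 rose. At an unadjusted p under 0.05 6 were lower, Gpx4 included, and 1 was higher (median log2 change -0.30). The shares of all probe sets at that threshold were 7.58% lower and 7.06% higher. Of 10 genes of selenocysteine synthesis and insertion none passed by limma, with 1 higher and 1 lower at an unadjusted p under 0.05 (median 0.03). Ncl, a nucleolar protein that binds RNA, SECIS elements included, had 3121, 3249 and 3273 in knockouts, against 2265, 2336 and 2746 in controls (0.39 ± 0.078, adjusted p = 0.0989). Secisbp2l, a relative of the SECIS-binding protein, had a change of -0.36 ± 0.12 (adjusted p = 0.243). Of 3 receptors for selenium carriers none passed by limma, with 1 higher and 1 lower at an unadjusted p under 0.05. Lrp1, a receptor that takes up many ligands and has been linked to Selenop uptake in muscle, had 39.3, 33.1 and 28.1 in knockouts, against 75.5, 76.2 and 46.3 in controls (-0.71 ± 0.15, adjusted p = 0.115). The kidney receptor Lrp2 was dim, at 11.3 to 16.9 in knockouts and 5.48 to 8.93 in controls (0.38 ± 0.14, adjusted p = 0.298).

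**Figure D5:**
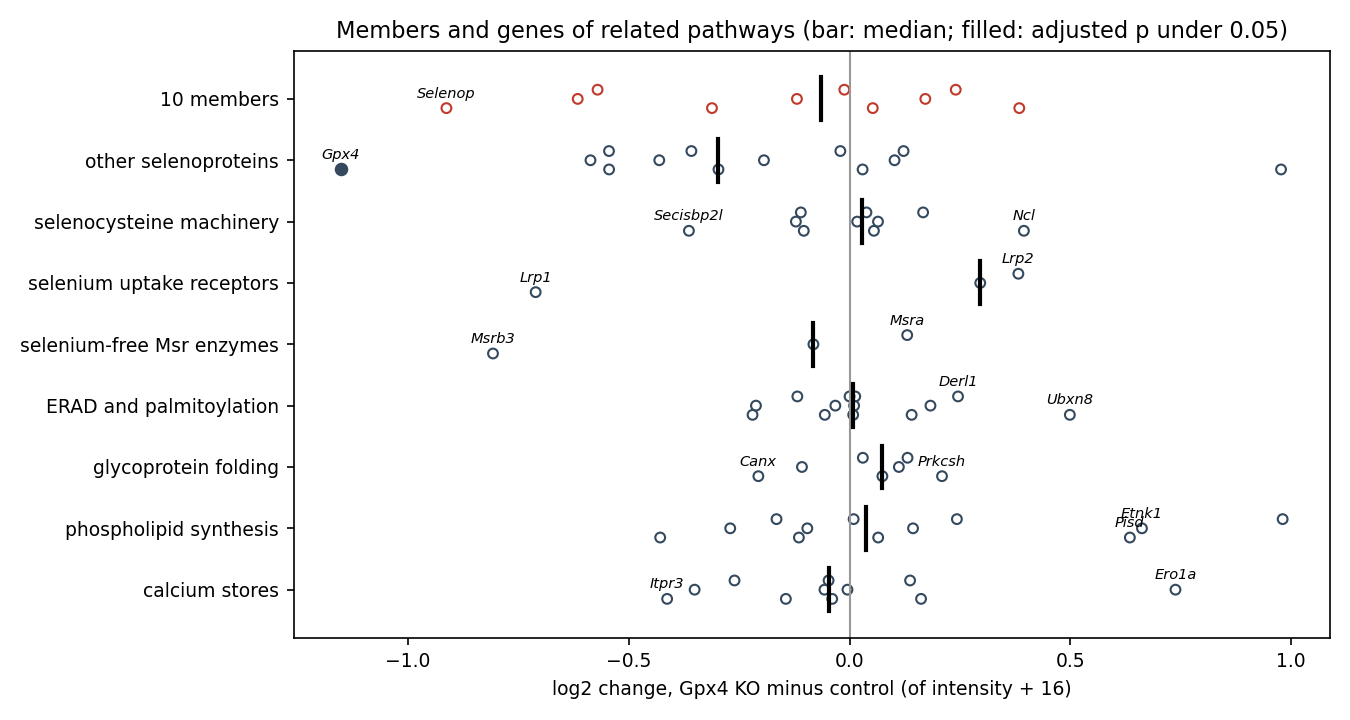
Log2 change (knockout minus control, of intensity + 16) of the 10 genes (red) and of every measured gene of 8 related lists (dark grey), 1 circle per gene by its brightest probe set, with the list median as a bar and adjusted p under 0.05 filled. Gpx4 is the 1 filled circle, and the median of the remaining selenoproteins is -0.30 against -0.07 for the 10.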

How the data were processed

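Messenger RNA was measured on 6 Affymetrix arrays. Per the labels' protocols, RNA was extracted with Trizol and labelled with biotin by in vitro transcription. The intensities deposited are linear, 1 for each probe set on each array. Background correction, probe summary and scaling by the authors are not given in the sources used here. Array means trimmed by 2% on either side spanned a range of 1.57-fold. The control of litter C was the brightest array, with a trimmed mean of 114.3 against 73.4 for its knockout. The other arrays lay between 72.8 and 92.0. After 64 control probe sets were dropped, the other 45037 were quantile-normalized. The test was limma 3.58.1 (R 4.3.3) on log2(intensity + 16), with eBayes, an intensity trend and a threshold of 0.05. The labels call the 3 arrays of a group biological replicates, each from another litter. With litter as a block, p-values rest on how the knockout-minus-control difference varies between litters, moderated by the intensity trend over all probe sets. The deposited medians lay between 15.9 and 20.4, and 3 arrays per group limit the precision. No detection calls were used.

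Litter was a block, since the labels name each array's litter. Residuals of same-litter arrays correlated at 0.175 (A), 0.0474 (B) and 0.207 (C). The members, gene lists, motifs and tests were chosen with earlier results of these data known. Named were all members, Gpx4, and in each related list the genes that passed or, where none did, up to 2 with the smallest p, plus the 5 genes most like the member with the smallest p. Symbols come from the platform annotation, updated through RefSeq (GRCm38.p6), which also gave the promoter windows for all 10 genes. Alternatives were other scalings, pseudocounts of 1 and 64, no trend, no block, a filter on dim probe sets, the mean of a gene's probe sets, and leaving out each litter or array. Only the limma fit was tested on simulated log2 values, and the normalization, the choice of probe sets and the motif search were not.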

Additional observations from a re-analysis of the deposited data

How the results depend on the processing

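With 3 pairs, the number of calls depended on the setting and on litter C. Of the 170 values of 10 genes under 17 alternatives, 149 kept direction and side of the threshold, 12 passed only in the alternative and 9 turned in direction. Over all probe sets 189 passed (37.6% of them higher), against 35 as deposited (8.57% higher), 710 after array medians were equalized (27.9% higher), 601 and 59 with pseudocounts of 1 and 64, 1165 without the 40% dimmest probe sets, 30 with the mean of a gene's probe sets and 6 without a trend. Without the replicate block 135 passed, and 0 of the 10 genes, as with it. Leave-one-out fits (each litter, or each array without the block) gave 0 to 2666 calls, the lowest without litter B (3695 by unadjusted p) and the highest once litter C was dropped. Of the 10 genes 0 passed, against 1 with a pseudocount of 1 and 1 after array medians were equalized (Selenop both times), 3 without the dimmest probe sets, and 0 to 4 in the leave-one-out fits. The 4, without the control of litter C, were Selenop (-1.06, adjusted p = 0.00335), Selenom, Selenoi (0.58, 0.0263) and Msrb1 (-0.92, 0.0275). In that fit 2413 of 45037 probe sets passed, and without the dimmest probe sets 1165 of the 27022 left. The adjusted p of Selenop ranged from 0.00335 to 0.509 over its alternatives. The median change of the 10 was -0.24 as deposited and -0.18 after array medians were equalized, and between -0.14 and -0.0081 in the leave-one-out fits. Selenot turned to -0.12 as deposited and -0.061 after array medians were equalized, and Selenof to 0.085 with the mean of its probe sets. In the leave-one-out fits Selenof lay between -0.079 and 0.053 and Selenow between -0.14 and 0.71. The cause was not tested.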
